A study of Homo sapiens with 3 samples.

Results

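Broad peaks inside protein-coding genes are stretches of 500 bases or more over which RNA fragments gathered in an eCLIP of mouse PXR in LS174T cells. In eCLIP, RNA is crosslinked to protein by UV light, precipitated with an antibody and sequenced. The list of the series holds 21031 peaks, and 1030 of them were broad peaks inside coding genes, in 851 genes. A peak was taken when its centre lay in the span of exactly 1 protein-coding gene and no other gene, on chromosomes 1 to 22 or X. The gene had to be 5000 bases or longer, the centre had to be over 1000 bases from both gene ends, and the peak had to be 500 bases wide or wider. With any width, 9972 peaks met the same rule of place and are called inside peaks. Of these 10.3% were broad, 6773 were of intermediate width, and 2169 were of single-read width, at most 2 bases over the list's minimum of 200 bases. The members were chosen by this deposited width.

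The groups were 2 replicates of the PXR immunoprecipitate and 1 input library. All 3 came from LS174T cells, derived from a human colon adenocarcinoma. All had been transfected 24 h earlier with mouse Pxr that carried an HA tag, the input included. Cells were irradiated at 254 nm with 400 mJ/cm2. The data are a single peak list that names no replicate. Values therefore carry no spread between replicates, and immunoprecipitate and input were not tested against each other. The protocol lists antibodies to PXR and HA and a control IgG without tying them to libraries.

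PXR is a nuclear receptor that switches on genes for drug and bile acid disposal in liver and intestine, and it is known mainly as a DNA-binding factor. A transcript of a coding gene begins as a long precursor with introns, from which splicing joins the exons. The coding sequence usually spreads over many short exons, while the end of the message often lies in 1 long exon. A peak of 500 bases or more is one region that the caller marked on the genome. The list gives a summit per peak and no coverage along it, so gaps within a peak could not be seen. Exons were not used here, so places are given as distances of the peak centre from the ends of the gene span.

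A few broad peaks lay over elements whose sequence is known from the RefSeq tables of GRCh38.p14, whose coordinates are those of hg38. These are the sequences the peaks in question covered. In all, 2 broad peaks (0.194% of 1030) overlapped a microRNA hairpin, against 11 of 8942 narrower inside peaks (0.123%), and both lay on the strand of the hairpin. One was in DDX5, which codes for an RNA helicase, at chr17:64500455-64501899. That peak spanned 1445 bases at a fold of 4.12 with 146 reads at its summit, which lay 415.5 bases from the middle of the 66-base hairpin of MIR3064. The other was in CALR, for the chaperone calreticulin, at chr19:12940086-12940782. It spanned 697 bases at a fold of 3.53 with 78 reads, and its summit was 77 bases from the middle of the 57-base hairpin of MIR6515. The mature sequences of the hairpins are shown 5′ to 3′ with the seed, bases 2 to 8, in capitals. No 2 of them share a seed, and they lie at chr17:64500817-64500837 (minus strand), chr17:64500775-64500797 (minus strand) and chr19:12940521-12940540 (plus strand).
hsa-miR-3064-5p: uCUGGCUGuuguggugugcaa
hsa-miR-3064-3p: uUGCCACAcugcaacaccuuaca
hsa-miR-6515-3p: uCUCUUCAucuaccccccag

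Other broad peaks covered a transcription start that RefSeq annotates inside the gene, downstream of the gene's own upstream end. These were 15 of the 847 broad peaks whose gene has a strand in the promoter table (1.77%, Wilson interval 1.08 to 2.90%). Among peaks of intermediate width they were 47 of 5599 (0.839%, 0.632 to 1.11%), and among those of single-read width 10 of 1808 (0.553%, 0.301 to 1.02%). A wider interval covers more positions, so a higher share is in the nature of the class. For RTN4, which codes for the membrane-shaping protein reticulon 4 (Nogo), the peak at chr2:55049665-55050384 had a fold of 11.4 from 101 reads (exact Poisson interval 82.3 to 123). For PDE8A, a cyclic nucleotide phosphodiesterase gene, the peak at chr15:84981619-84982438 had a fold of 6.54 and 24 reads (15.4 to 35.7) and covered 2 starts. Of the 15 peaks, 11 had their summit after the inner start and 4 before it. RTN4 and PDE8A are among the 4, with summits at 170 bases upstream in RTN4 and 72 and 190 in PDE8A, and are shown because the summit with 50 bases on either side lies within a window of the table. The 101 bases around these summits are shown with the summit base in capitals, from chr2:55049811-55049911 (minus strand) and chr15:84981734-84981834 (plus strand).
RTN4 summit: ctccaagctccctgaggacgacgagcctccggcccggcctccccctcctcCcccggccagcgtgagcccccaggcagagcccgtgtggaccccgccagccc
PDE8A summit: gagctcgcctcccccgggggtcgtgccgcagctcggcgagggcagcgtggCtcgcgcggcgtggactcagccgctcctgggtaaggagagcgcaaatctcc

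The windows before these inner starts were rich in G and C. Over the 250 bases before the 16 starts, the median GC content was 75.6% (quartiles 66.4 and 78.3%), against 58% (46.4 and 68%) over all 34943 windows of the table. The motif GGGCGG, on either strand, occurred in 14 of the 16 windows (87.5%), against 42.5% of all windows. The core motif of nuclear receptors, AGGTCA on either strand, occurred in 0 of the 16 windows and in 13.8% of all, counting 50 bases past the start as well. These matches describe the letters of the windows and name no site. Inner starts under narrower peaks were not compared, so whether the values are particular to broad peaks was not tested. Many of the peaks lay within 2.5 kb of the upstream gene end, and the 2 windows of PDE8A overlap each other. The 100 bases before the start are shown for RGMB (chr5:98773563-98773662, plus strand), DYRK1A (chr21:37367457-37367556, plus strand) and UBE2D3 (chr4:102826859-102826958, minus strand), where they lay wholly under the broad peak, with GGGCGG or its complement in capitals. The 100 bases of UBE2D3 hold neither. These genes are examples, since the 100 bases lay wholly under the broad peak at other starts too. Among those, the 100 bases of RCC2, NFIA, SLC38A1 and POLR2H hold neither, and those of POLR1D, RTN4 and XKRX hold one. Of the 2 starts of PDE8A, 1 has it in its 100 bases.
RGMB: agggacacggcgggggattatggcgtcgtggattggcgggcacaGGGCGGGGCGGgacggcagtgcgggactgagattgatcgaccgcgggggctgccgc
DYRK1A: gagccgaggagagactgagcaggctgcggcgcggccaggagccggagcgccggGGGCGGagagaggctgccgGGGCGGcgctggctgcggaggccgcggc
UBE2D3: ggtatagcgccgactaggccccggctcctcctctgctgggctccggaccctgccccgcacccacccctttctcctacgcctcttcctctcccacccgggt

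Broad peaks were deeper than narrower inside peaks, with folds of much the same size. The width chose the members, and fold, significance and reads come from the same peak call, so these values are a description with no test. The fold is the authors' ratio of summit reads over background reads after adding 1 to both, and the background is as a rule the mean over the surrounding 10 kb. Reads at the summit were recovered from the deposited fold and −log10 p. Broad peaks had a median width of 663 bases (quartiles 563 and 846, range 500 to 3230), and 141 of them reached 1000 bases. Together they covered 773 kb. Their median depth was 36 reads (order-statistic interval 34 to 38, quartiles 24 and 57), against 24 reads (23 to 24) at intermediate width and 14 (14 to 15) at single-read width. Over 50 reads were found in 31.0% of broad peaks, against 13.1% and 2.81% of these narrower classes. The median fold was 5.63 in broad peaks (5.50 to 5.78), 5.61 (5.56 to 5.67) at intermediate width and 5.21 (5.13 to 5.26) at single-read width. Reads in the 10 kb had medians of 271, 158 and 87. The summit therefore held a median of 13.4% of the reads of its 10 kb in broad peaks, against 14.7% and 15.8%. That 10 kb includes the peak itself, so the reads of a wider peak add to its own background. Neither this share nor the fold is thus independent of width.

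The share of broad peaks among inside peaks was higher at each step of depth. It was 0.135% under 10 reads (1 of 743 peaks) and 3.52% from 10 to under 20 reads. It reached 13.0% from 20 to under 50 reads, 22.8% from 50 to under 100, 29.4% from 100 to under 200 and 41.3% at 200 reads or more (31 of 75 peaks, Wilson interval 30.9 to 52.6%). At matched depth broad and intermediate peaks had folds near each other, with medians of 5.57 for broad peaks and 5.53 for intermediate ones from 20 to under 50 reads. From 50 to under 100 reads they were 5.57 and 5.26. Peaks of single-read width differed, with 4.49 and 3.44 in these steps, and with 33.3 in 7 peaks from 100 to under 200 reads and 48.7 in 4 peaks at 200 reads or more, where broad peaks had 5.70 and 5.63. Among the broad peaks themselves, width and reads had a Spearman correlation of 0.33 and width and fold one of -0.03, over 1030 peaks that share libraries and, in part, genes. At the threshold, the 4 members nearest 500 bases were in KDM3B (500 bases, fold 6.44, 24 reads), CLIP1 (501 bases, 8.48, 18 reads), MANSC1 (501 bases, 8.02, 25 reads) and PTPRS (501 bases, 6.98, 17 reads). Just outside it, each 1 base short of the threshold, lay peaks in CALCOCO2 (fold 8.94, 26 reads), TGFBRAP1 (8.68, 24 reads), CPNE7 (5.12, 84 reads) and SLC38A1 (4.64, 35 reads).

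**Figure D1:**
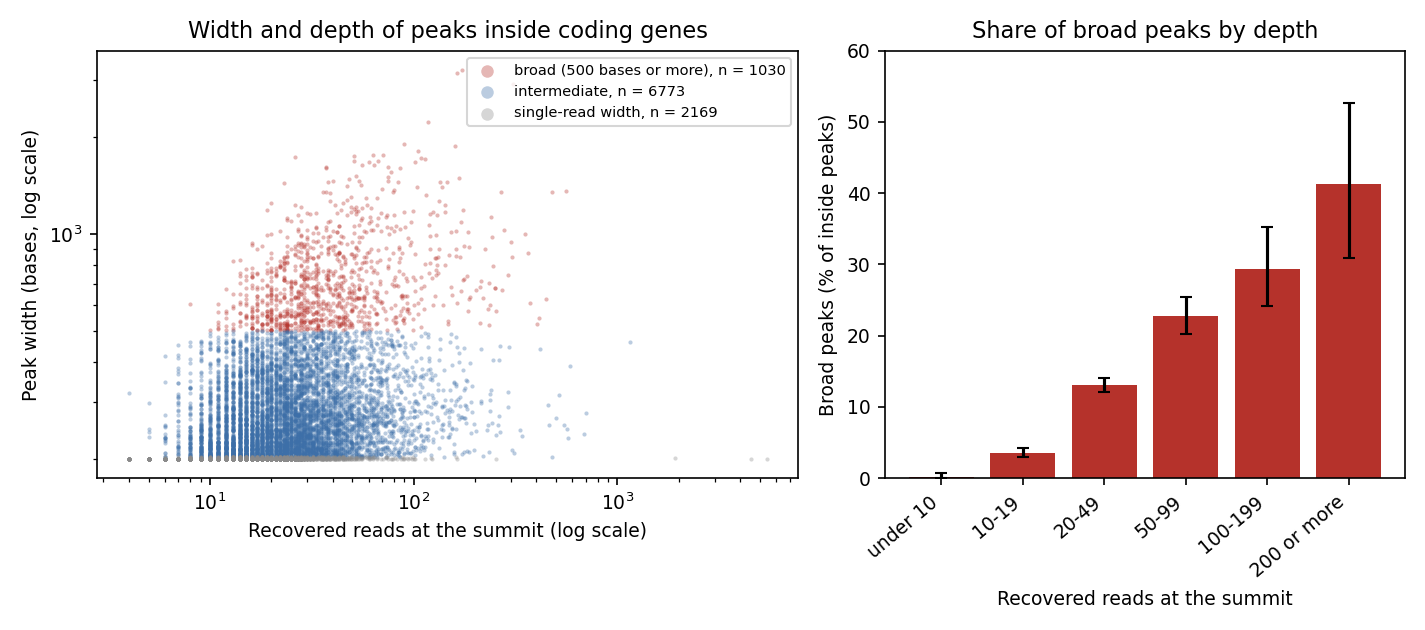
Left, width in bases against recovered reads at the summit, both on log scales, for 1030 broad peaks (red) and 6773 and 2169 narrower inside peaks (blue, grey), 1 point per peak. Right, broad peaks as a percentage of inside peaks in steps of summit reads, with Wilson intervals as bars. The share is 0.135% under 10 reads and 41.3% at 200 reads or more.

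Nearly all broad peaks lay on the strand of their gene. The gene's strand was taken from the promoter table, which gave it for 847 of the 1030 broad peaks. Of these 845 lay on the gene strand (99.8%, Wilson interval 99.1 to 99.9%), against 5561 of 5599 peaks of intermediate width (99.3%, 99.1 to 99.5%) and 1679 of 1808 peaks of single-read width (92.9%, 91.6 to 94.0%). The 2 broad peaks on the other strand were in MDN1 and ZNF124. MDN1, for a giant ATPase of ribosome assembly, is a minus-strand gene, and its plus-strand peak at chr6:89721158-89721789 had a fold of 19.4 from 53 reads (39.7 to 69.3), which were 59.6% of the reads in its 10 kb. The nearest other plus-strand peak was 639655 bases away. The ZNF124 peak, at chr1:247131437-247132126, had a fold of 6.62 from 19 reads (11.4 to 29.7). A peak of the opposite strand lay within 500 bases of 8 of the 1030 broad peaks (0.777%).

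Broad peaks gathered toward the downstream end of their genes. Of the 847 with known strand, 588 lay nearer the downstream end than the upstream end (69.4%, Wilson interval 66.2 to 72.4%), against 61.9% (60.6 to 63.1%) of intermediate peaks and 55.9% (53.6 to 58.2%) of those of single-read width. The last 10% of the gene span held 253 broad peaks (29.9%, 26.9 to 33.0%), against 18.5% and 14.5% of the narrower classes. Within 2.5 kb of the downstream end lay 28.7% of broad peaks (25.7 to 31.8%), against 14.0% and 9.96%. Genes of broad peaks were shorter, with a median of 42.5 kb over peaks, against 52.8 and 80.4 kb. Within genes of 20 to under 50 kb, the last 10% held 37.1% of broad peaks (31.5 to 43.1%), against 19.1% (17.3 to 21.1%) and 17.2% (14.0 to 21.0%). Within genes of 100 kb or more the values were 28.6% (23.2 to 34.7%), against 21.8% (19.9 to 23.8%) and 14.9% (12.6 to 17.5%). In these longest genes 62.8% of broad peaks (56.5 to 68.8%) lay nearer the downstream end, against 61.8% (59.6 to 64.1%) and 55.6% (52.1 to 59.0%). On that measure broad and intermediate peaks were not set apart there. From 50 to under 100 kb their intervals overlapped as well, at 66.2% (58.4 to 73.3%) and 61.7% (58.9 to 64.5%). They did not overlap from 20 to under 50 kb, at 76.5% (71.0 to 81.2%) and 63.5% (61.1 to 65.8%). Nor did they from 5 to under 20 kb, at 70.2% (63.5 to 76.1%) and 59.6% (56.6 to 62.5%). At the upstream end the classes were closer, with 8.26% of broad peaks in the first 10% of the gene, against 7.57% and 7.96%. Within 2.5 kb of the upstream end lay 9.21% of broad peaks (7.44 to 11.3%), against 7.13% (6.48 to 7.83%) and 5.75% (4.77 to 6.92%). There the interval of broad peaks overlapped that of intermediate peaks but not that of single-read width. Peaks are not replicates, and these intervals cover counting only.

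**Figure D2:**
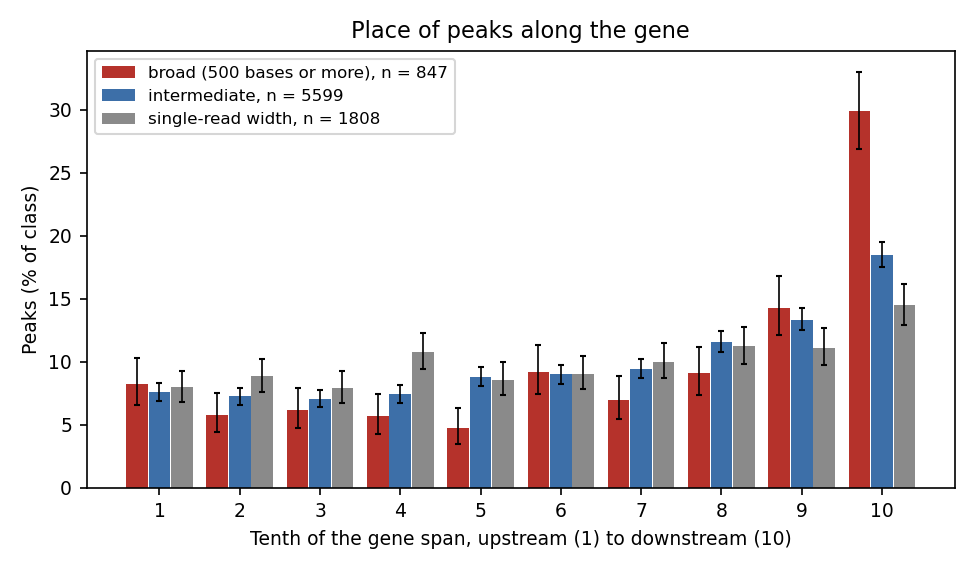
Percentage of each class of inside peaks in each of 10 equal steps along the gene span, 1 at the upstream and 10 at the downstream end, for 847 broad peaks (red) and 5599 and 1808 narrower peaks (blue, grey), with Wilson intervals. In the last step the broad class stands at 29.9% and the narrower classes at 18.5% and 14.5%.

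Broad peaks near the upstream end had higher folds than those near the downstream end. The 243 within 2.5 kb of the downstream end had a median width of 713 bases (order-statistic interval 666 to 755) and a median fold of 5.53 (5.20 to 5.72). The 78 within 2.5 kb of the upstream end had a median width of 636.5 bases (571 to 720) and a median fold of 6.37 (5.88 to 7.01). A fold of 10 or more was found in 11 of these 78 (14.1%) and in 9 of the 243 (3.70%). Among narrower inside peaks the same shares were 8.35% near the upstream end and 2.59% near the downstream end, so the narrower peaks ran the same way. The intervals of width overlapped, and so did those of depth, with medians of 33 reads (28 to 40) upstream and 39 (34 to 43) downstream.

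The 10 broad peaks with the highest fold were of modest width, 519 to 725 bases, and 4 of them lay within 2.5 kb of the upstream gene end. The highest was in SET, which codes for a histone chaperone and phosphatase inhibitor, at chr9:128689246-128689764, with a fold of 23.5 from 235 reads (206 to 267), 51.9% of the reads in its 10 kb. ATP2A2, for the calcium pump SERCA2, had a fold of 19.9 from 176 reads (151 to 204) at chr12:110281315-110282039, 1.06 kb from the upstream end. DLG1, for a scaffold protein of cell polarity, had a fold of 18.6 from 66 reads (51.0 to 84.0), 1.54 kb from the upstream end. The small GTPase gene RAB10 had a fold of 16.2 from 153 reads (130 to 179), 1.21 kb from it, and EIF3B, for a subunit of the initiation factor eIF3, had 14.4 from 109 reads (89.5 to 131), 1.11 kb from it. The others, apart from MDN1, were RNF128 (15.8, 49 reads), CCNI (15.1, 82 reads), SCARB2 (14.5, 73 reads) and LMNA (14.3, 189 reads). RNF128 codes for a ubiquitin ligase, CCNI for a cyclin, SCARB2 for a lysosomal membrane protein and LMNA for the nuclear lamins A and C.

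The 10 widest spanned 1743 to 3230 bases, with folds of 3.78 to 7.42. FAT1, for a giant protocadherin, had the widest, 3230 bases at chr4:186706517-186709746, with a fold of 4.68 and 173 reads at the summit (148 to 201). Its centre was 18.56 kb from the upstream end. NPDC1 had one of 3174 bases at chr9:137042880-137046053, with 163 reads and a fold of 3.97. The gene is 6.72 kb long, so this peak covered 47.3% of it. SLC7A5, for the amino acid transporter LAT1, had one of 2923 bases at chr16:87830041-87832963 with 306 reads (273 to 342). Its centre was 1.48 kb from the downstream end at chr16:87830023, so the peak itself ran almost to that end. Within 2.5 kb of the downstream end lay also MKNK2 (2224 bases, 117 reads), SEPTIN9 (1909 bases, 90 reads), TMBIM6 (1870 bases, 159 reads) and ZFP36L1 (1810 bases, 105 reads). MKNK2 codes for a kinase of the cap-binding factor eIF4E, SEPTIN9 for a septin, TMBIM6 for a membrane protein that protects cells from death, and ZFP36L1 for a protein that binds AU-rich messages and promotes their decay. The remaining widest peaks were in MISP (1756 bases, fold 5.34), RREB1 (1754 bases, fold 4.53) and MGAT1 (1743 bases, fold 6.25). Of the 10 widest, 5 lay within 2.5 kb of the downstream end and 1 within 2.5 kb of the upstream end.

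By depth, the first was in VEGFA, the gene of the vascular growth factor, with 561 reads (516 to 609) and a fold of 10.8 over 1358 bases at chr6:43784554-43785911. NSMF, for a protein that carries signals from synapse to nucleus, had 476 reads (434 to 521) in one broad peak and 411 (372 to 453) in another. TNS4, for the focal adhesion protein tensin 4, also had 2, with 446 reads (406 to 489) and 353 (317 to 392). EEF2, for the elongation factor of translation, had 402 reads (364 to 443) at a fold of 4.59. The autophagy receptor gene SQSTM1 had 372 (335 to 412) at 10.3. PIGR, for the receptor that carries IgA across epithelia, had 363 (327 to 402) at 8.26. SLC7A5, with 306, and SRRM2, for a large splicing protein, with 303 (270 to 339), completed the 10.

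Most genes held a single broad peak. The count was 1 in 718 of 851 genes, 2 in 96, 3 in 30, 4 in 5 and 5 in 2. In 249 genes (29.3%) every inside peak was broad. In the other 602, which held narrower inside peaks as well, the median reads of the broad peaks were above those of the narrower ones in 492 genes (81.7%) and the median fold in 388 (64.5%). FAT1 and RNF213 held 5 broad peaks each, of 20 and 15 inside peaks. The FAT1 peaks had 123, 119, 137, 91 and 173 reads, and folds of 3.99 to 9.89. RNF213, for a giant ubiquitin ligase with an ATPase motor, had 89, 55, 120, 79 and 82 reads in its 5, from the upstream to the downstream one. In both genes the deepest broad peak had under 3 times the reads of the shallowest.

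Genes with 4 broad peaks were EP300, TNRC18, NSMF, KMT2D and ONECUT3. In EP300, for a histone acetyltransferase and coactivator, 3 of the 4 lay side by side within 2.73 kb of the downstream end, with 35, 30 and 34 reads, and the fourth had 32 reads at 25.02 kb from the upstream end. TNRC18 had 44, 50, 128 and 113 reads in peaks of 519 to 1713 bases. All 4 inside peaks of NSMF were broad, with 476, 243, 219 and 411 reads, and they covered 29.8% of its 11.8 kb. KMT2D, for a histone H3 lysine methyltransferase, had 51, 57, 69 and 57 reads at folds of 3.19 to 5.08. ONECUT3, a homeobox factor gene whose strand was not in the table, had 252, 270, 279 and 212 reads at folds of only 2.30 to 3.22. Of the 30 genes with 3, those taken by fold were RGMB, with 162, 186 and 291 reads, MPRIP, with 40, 112 and 46, and SUGP2, with 44, 57 and 52. By summed width the first after FAT1 (7059 bases) and RNF213 (4731 bases) were TNRC18 (3908), NSMF (3505), NPDC1 (3174), RREB1 (3149), ATN1 (3109) and LARP1 (3024). Next came SLC7A5 (2923) and ONECUT3 (2911).

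**Figure D3:**
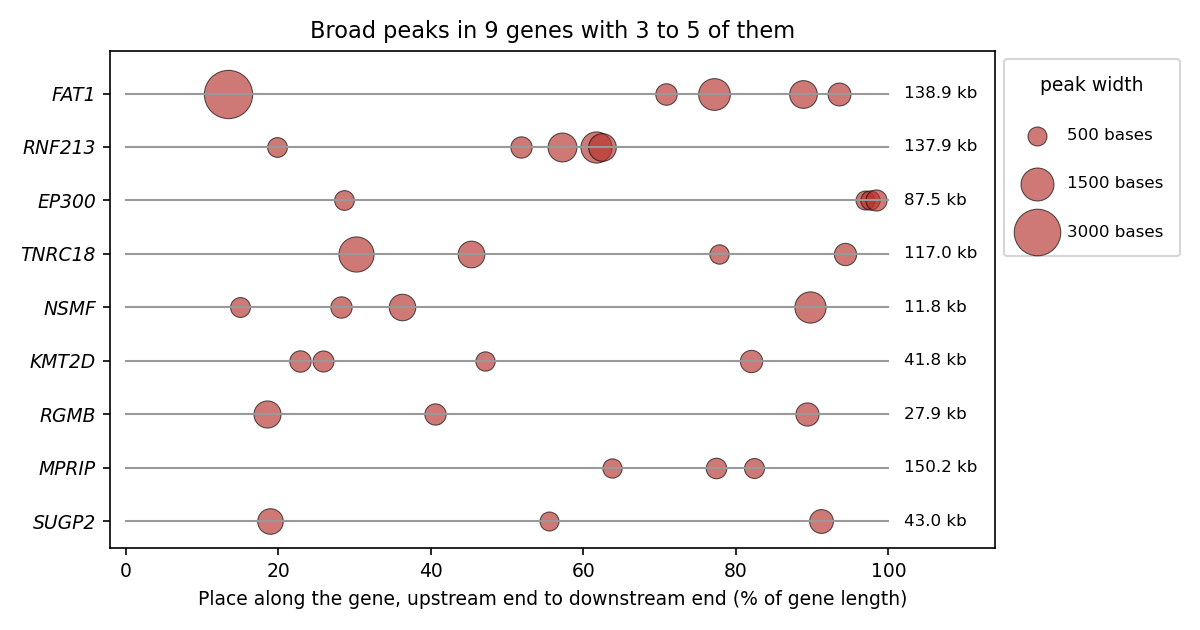
Place of each broad peak along the gene, from the upstream to the downstream end as a percentage of gene length, in 9 genes of known strand. The first 6 hold 4 or 5 broad peaks, and the last 3 are among 30 genes that hold 3 and were taken by fold. Circle area grows with peak width, and gene length stands at the right. Of the 4 EP300 peaks 3 crowd at the downstream end, while those of TNRC18 and NSMF spread along the gene.

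Some broad peaks were parts of longer stretches. Joining inside peaks of one strand and gene at most 200 bases apart gave 120 runs with a broad peak, which held 142 of the 1030 broad peaks (13.8%) and had a median span of 1167 bases. The longest, in RREB1, for a zinc finger factor of the Ras pathway, spanned 2480 bases in 3 peaks, which covered 90.2% of it. In RNF213, 2 broad peaks of 79 and 82 reads spanned 2458 bases with 97.9% covered. In FAT1, 3 peaks spanned 2343 bases with 97 to 137 reads. In MUC2, the gene of the main intestinal mucin, 2 broad peaks of 153 and 182 reads spanned 1871 bases. In the runs of RNF213 and MUC2 the 2 summits were thus of similar depth, and in RREB1 summit reads ran between 35 and 63. Depth between the summits is not given by the list.

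Broad peaks were set against gene lists that were chosen with earlier results of these data known. Of 16814 eligible genes, meaning coding genes of 5000 bases or more on chromosomes 1 to 22 and X, 851 held a broad peak (5.06%). Any inside peak was found in 26.9% of eligible genes, and 18.8% of those with any held a broad one. By gene length the share with a broad peak was between 3.90% (5 to under 20 kb) and 7.21% (100 to under 200 kb). No expression values were used here, so more RNA of a gene and more binding to it cannot be told apart. No list was tested, and the counts describe this peak list.

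At 500 bases or more, the largest shares among the lists were in genes of the cell skeleton and of chromatin. With a width of 750 bases or more they were 26.7% and 16%, and the chromatin share was then below that of the goblet and colon markers (22.2%). Among peaks with −log10 q at or above the list median they were 46.7% and 26%. Of 30 large cytoskeletal and motor genes 15 held a broad peak (50%, Wilson interval 33.2 to 66.8%). They made up 62.5% of the 24 with any inside peak. Widest were MYO18A (1341 bases, 39 reads), for an unconventional myosin, SPTBN1 (1127 bases, 239 reads), for beta spectrin, DYNC1H1 (1043 bases, 77 reads), for the dynein heavy chain, and PLEC (941 bases, 300 reads), for plectin. Chromatin modifiers and remodellers held one in 22 of 50 genes (44.0%, 31.2 to 57.7%), 45.8% of the 48 with any inside peak. ARID1A (1306 bases, 49 reads) and ARID1B (1234 bases, 59 reads), for subunits of the SWI/SNF remodeller, led the list by width. Their peaks lay 1.01 and 2.94 kb from the upstream ends. SETD1B, a methyltransferase gene, had 1160 bases with 33 reads, and KDM3B, a demethylase gene, had 1096 bases with 25 reads. The median depth of the 41 broad peaks in chromatin genes was 33 reads, against 89 reads for the 21 in cytoskeletal genes.

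A list of ubiquitin ligases, labelled giant though not all of them are, held a broad peak in 7 of 24 genes (29.2%, Wilson interval 14.9 to 49.2%). Widest after RNF213 were WWP2 (1147 bases), TRIP12 (702) and ZNF598 (691), the last in a gene of only 12.2 kb. Integrin, laminin and plexin genes, a list with FAT1 among its cell surface members, held one in 7 of 25 (28%, 14.3 to 47.6%). PLXNA1 (1164 bases) and PLXNB2 (1051 bases) code for semaphorin receptors and LAMA5 (1098 bases) for a laminin chain. Wnt pathway genes held one in 7 of 28 (25.0%, 12.7 to 43.4%). Widest there were the ligases ZNRF3 (1637 bases, 56 reads) and RNF43 (1229 bases, 143 reads), which remove Wnt receptors from the surface, then AXIN2 (817 bases, 85 reads), a scaffold of beta-catenin breakdown, and MYC (798 bases, 142 reads). Among PI3K-like kinases and partners it was 2 of 16 (12.5%, 3.50 to 36.0%), PIK3C2B and PIK3C2A.

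Of hnRNP and SR splicing genes 9 of 38 held a broad peak (23.7%, Wilson interval 13.0 to 39.2%), with HNRNPF (1445 bases, 134 reads), SRRM2 (1349 bases, 267 reads), HNRNPM (850 bases, 132 reads) and PTBP1 (813 bases, 120 reads) widest. The hnRNP and SR share was 39.5% with centres over 500 bases from both gene ends and 5.26% over 5000 bases. Translation initiation factors had one in 7 of 36 (19.4%, 9.75 to 35%), among them EIF3A (839 bases, fold 10.6), EIF2AK1 (708 bases, fold 5.88), EIF4G1 (680 bases, fold 5.43) and EIF3B. EIF2AK1 is a kinase of an initiation factor. For microRNA pathway genes it was 3 of 16 (18.8%, 6.59 to 43.0%), namely ADAR (1508 bases, 75 reads), an RNA-editing enzyme, DICER1 (643 bases, 19 reads) and DROSHA (530 bases, 16 reads). Writers, erasers and readers of m6A had one in 3 of 19 (15.8%, 5.52 to 37.6%), which were the readers YTHDF1, YTHDF3 and YTHDF2 with 39, 24 and 25 reads. For RNA decay and deadenylation genes it was 1 of 35 (2.86%, 0.506 to 14.5%), ZFP36L1, although 21 of the 35 held some inside peak. This share rests on the threshold, and with a width of 400 bases or more it was 22.9%, against 36.8% for hnRNP and SR genes. Nucleoporin and nuclear transport genes had one in 5 of 36 (13.9%, 6.08 to 28.7%), with RANBP2, TNPO1, KPNB1 and NUP214 between 541 and 623 bases.

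Among metabolic and secretory genes, lipid synthesis and cholesterol genes held a broad peak in 6 of 29 (20.7%, Wilson interval 9.85 to 38.4%). This share rests on the distance from the gene ends. It was 34.5% with centres over 500 bases from both ends and 6.90% over 2000 bases. DHCR7 (1348 bases, 37 reads) codes for a late enzyme of cholesterol synthesis, SCD (1608 bases, 86 reads) for the desaturase that makes oleate, and SREBF2 (1086 bases, 97 reads) for the sterol-sensing regulator. The SCD and SREBF2 peaks lay 1.53 and 1.24 kb from the downstream end. Glucose metabolism genes held one in 1 of 22 (4.55%, 0.807 to 21.8%), the transporter SLC2A1 with 97 reads over 946 bases, although 16 of the 22 held an inside peak. Endoplasmic reticulum chaperones had one in 2 of 18 (11.1%, 3.10 to 32.8%), CANX with 120 reads and CALR. For secretory pathway coat genes it was 3 of 30 (10.0%, 3.46 to 25.6%), SEC16A, GOLGA3 and SEC24B. Proliferation and replication genes had one in 2 of 34 (5.88%, 1.63 to 19.1%), BIRC5 and PCNA. The shares of glucose and of proliferation genes are near the 5.06% of all eligible genes. Of genes with any inside peak, a broad one was held by 6.25% of 16 glucose genes and 13.3% of 15 chaperones. It was held by 10.5% of 19 proliferation genes, against 18.8% over all eligible genes with any.

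Genes tied to PXR itself held a broad peak in shares of 4% to 20.0%, with Wilson intervals that overlapped. Among drug metabolism and transport genes the share was 1 of 25 (4%, Wilson interval 0.710 to 19.5%), and 4 of the 25 held any inside peak. The 1 was the sulfotransferase gene SULT1A1, with 28 reads over 911 bases. That share is near the 5.06% of all eligible genes. Nuclear receptors had one in 4 of 34 (11.8%, 4.67 to 26.6%). These were NR2F2 (945 bases, 33 reads) and NR2F6 (521 bases, 60 reads), orphan receptors of the COUP family, the vitamin D receptor VDR (683 bases, 35 reads) and ESRRA (565 bases, 34 reads). NR1I2, the human gene for PXR, held 0. Cofactors of these receptors held a broad peak in 6 of 30 (20.0%, 9.51 to 37.3%). The cofactor share was 30% at a width of 400 bases or more, 3.33% at 750 and 0 at 1000. Widest were the acetyltransferase genes CREBBP (821 bases, 30 reads) and EP300 (619 bases, 34 reads), the Mediator gene MED13L (614 bases, 18 reads) and the corepressor NCOR1 (597 bases, 51 reads). Of genes with any inside peak, a broad one was held by 25% of 4 drug metabolism and transport genes. It was held by 20% of 20 nuclear receptors and 31.6% of 19 cofactors, against 18.8% over all eligible genes with any. The 491 ZNF genes taken by symbol had one in 15 (3.05%, 1.86 to 4.98%), the first by width being ZNF692, ZNF516, ZNF787 and ZNF503.

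The labelled cell type was set against marker genes. Goblet and colon epithelial markers held a broad peak in 7 of 27 eligible genes (25.9%, Wilson interval 13.2 to 44.7%), among them the mucins MUC2 (1012 bases, 153 reads) and MUC5B (921 bases, 96 reads), VIL1 (918 bases, 29 reads), for the microvillus protein villin, and CDH1 (812 bases, 56 reads), for E-cadherin. Markers of hepatocytes held 0 in 17 eligible genes, of blood and immune cells 0 in 12, of fibroblasts and endothelium 0 in 18 and of neurons 0 in 17. The upper Wilson limits of these were 18.4%, 24.2%, 17.6% and 18.4%. All 4 intervals thus include the 5.06% of all eligible genes, and they overlap that of the goblet and colon markers. Of the 20 goblet and colon markers with any inside peak, 35% held a broad one, against 18.8% over all eligible genes with any. With a width of 1000 bases or more, the share of goblet and colon markers was 3.70%. Among the 4 lists, 3 neuronal genes had an inside peak of any width and the other 3 lists had 0.

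**Figure D4:**
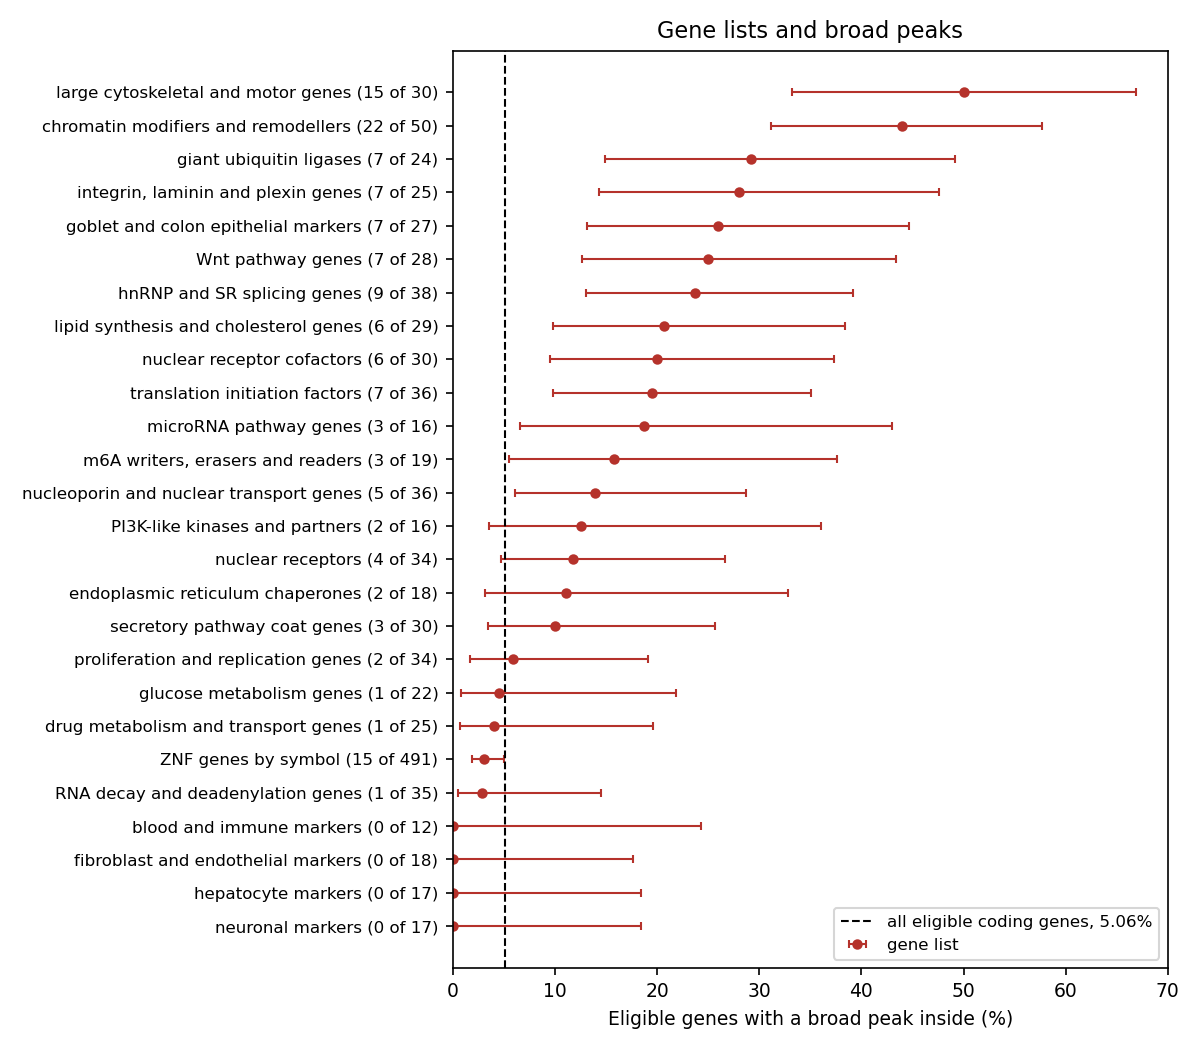
Percentage of eligible genes of each list described here that held a broad peak inside (points) with Wilson intervals (lines). The dashed line is the 5.06% of all eligible coding genes. Cytoskeletal and motor genes stand at 50% and chromatin genes at 44.0%, and the 4 lists of other cell types stand at 0.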

How the data were processed

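Per the labels, 2 PXR immunoprecipitate libraries and 1 input were made. Tools in the submitters' processing notes are MACS2, BWA and cutadapt, with build hg38 and no settings. The deposited list gives, per peak, a score (the integer part of 10 times −log10 q), a fold (the caller's ratio of summit reads to background), −log10 p and −log10 q by the authors, and the summit's distance from the start. Peak names show calling per strand. Depth per library is unknown.

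Reads k at each summit and background b were recovered by solving fold = (k + 1)/(b + 1) with the Poisson p, which succeeded for 21028 of 21031 peaks, all 1030 broad ones included, with a tolerance of 0.0001 plus 0.00001 of the value on the deposited −log10 p. The recovery was tested on data simulated with the same formulas, which checks the solving and not the 10 kb background. Genes (59792) and promoter windows, which gave gene strand and inner starts, are from RefSeq GRCh38.p14. Wilson and Poisson intervals are at 95% and cover counting error only; PCR copies are not independent molecules. Python 3.11.15, NumPy 2.4.6, pandas 2.3.3 and SciPy 1.17.1 were used.

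Members and lists were chosen with earlier results of these data known. Named were the 10 members highest in fold, width and reads, the 10 genes with most members and with the greatest summed width, the 4 peaks on each side of 500 bases, and up to 4 genes per list with the widest members, apart from some items that are not reported here. The sequences, the runs and the peaks on the other strand were chosen after their values were seen. Alternatives changed width, place, significance, gene length and strand neighbours.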

Additional observations from a re-analysis of the deposited data

How the results depend on the processing

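The counts depend on the width and on the distance from the gene ends. At 400 bases or more there were 1745 broad peaks in 1325 genes, 17.5% of inside peaks, with a median of 32 reads. At 750 bases they were 360 in 335 genes (3.61%), with a median fold of 5.50, 45.5 reads, 75.1% nearer the downstream end and 100% on the gene strand. At 1000 bases they were 141 in 134 genes (1.41%), with 5.25, 59 reads, 79.2% and 100%. Over 500 bases from the ends the median fold was 5.98, 65.4% lay nearer the downstream end and 12.5% of inside peaks were broad. Over 2000 bases 8.47% were broad. Over 5000 bases 470 broad peaks in 392 genes met the rule (7.42%), with 5.87, 33.5 reads and 61.9% nearer the downstream end. With −log10 q at or above the list median, 17.3% were broad, with a median fold of 6.18 and 44 reads, and the narrower peaks then had a higher fold, 6.68. In genes of 20000 bases or more 9.48% were broad. With 1 member per gene, an alternative chosen after seeing the data, the median was 33 reads. Using the summit or the whole peak, or leaving out peaks with a neighbour on the other strand, moved none of these results beyond its interval. Of 297 list shares under alternatives, 56 left the interval of the main share. Exon and GC alternatives were not run, since neither exons nor a genome were used here. No paired analysis was possible because the list gives no values of single libraries.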

Other observations

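The share of eligible genes with a broad peak, 5.06% over all, differed between chromosomes, which was not tested. On chromosome 22 33 of 387 eligible genes held one (8.53%), on chromosome 20 35 of 455 (7.69%) and on chromosome 16 50 of 684 (7.31%), against 15 of 642 on chromosome X (2.34%) and 22 of 841 on chromosome 6 (2.62%). Taken as a share of inside peaks, 10.3% over all, broad peaks ranked otherwise, with chromosome 17 highest (14.6%) and chromosome 10 lowest (6.25%). Short genes could be covered in large part. After NPDC1 and NSMF, broad peaks covered 27% of ALDH1B1, for a mitochondrial aldehyde dehydrogenase, 26.2% of the zinc finger gene MAZ, 25.4% of MID1IP1, for a regulator of lipid synthesis, 21.1% of ZFP36L1 and 20.9% of LIF, for a cytokine.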
